A study of Bos taurus with 16 samples.

Results

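Rumen papillae of 4 steers with high body weight gain and high feed intake were compared with those of 4 steers with low gain and low intake. These 8 animals are those whose titles put them in the groups high gain, high intake (HGHI) and low gain, low intake (LGLI), out of 16 animals sequenced. All were crossbred steers, which are castrated males, aged 344 ± 48 days by the labels, and all ate freely from a common ration of 57.35% corn, 30% distillers grains, 8% alfalfa hay, 4.25% supplement and 0.4% urea. No treatment was given. Animals were picked by the quadrant they fell into for gain and dry matter intake, so both traits differ together here and their parts in a difference cannot be told apart. The other 8 steers, with high gain and low intake or with low gain and high intake, are given below as levels only.

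The rumen is the fermentation chamber of the bovine forestomach, and papillae are the finger-like folds of its wall. Each papilla has a stratified squamous epithelium, which takes up acetate, propionate and butyrate, turns much of the butyrate into ketone bodies and sheds a cornified surface. Below it lies a core of connective tissue with blood vessels, and deeper layers of the wall hold smooth muscle. A clipped papilla therefore yields RNA of keratinocytes, fibroblasts, vessel cells and immune cells in 1 extract.

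Polyadenylated RNA was sequenced with single reads of 50 bases, and the values are mean read coverage per base, scaled per library. Each gene was represented by 1 exon region, the best covered on average in the 16 libraries, and 8984 of 12012 genes passed the filter of at least 0.5 in 4 of the 8 libraries. Depth was an estimated 15.1 to 20.8 M reads in HGHI libraries and 13.9 to 16.4 M in LGLI libraries. A library of each group stood apart: HGHI replicate 4 and LGLI replicate 3 had little coverage of first exons. Their first-exon index, the median over genes of the log2 ratio of first-exon coverage to that of the gene's other exons, was -3.18 and -3.08, and 623 and 1040 tested genes were listed at 0 in them. In the other 6 libraries the index ran from -1.28 to -0.997 in HGHI steers and from -0.73 to -0.60 in LGLI steers, without overlap. Mitochondrial bases made up 11.4% to 25.04% of HGHI libraries and 9.29% to 17.5% of LGLI libraries. Over all 8 libraries none of 5 such measures passed a two-sided exact permutation test of the group means (adjusted p of 0.333 to 0.914, smallest raw p possible 0.0286). Between the 3 and 3 libraries without thin first exons, the exon share, the mitochondrial share and the index each reached a raw p of 0.1, the smallest that an exact permutation test of that size can give. In these 6 libraries the exon share averaged 60.8% in HGHI steers and 68.0% in LGLI steers. The mitochondrial share averaged 17.8% and 10.2%. Gene results are also given without the 2 libraries with thin first exons, a comparison in which these measures still differ between the groups.

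**Figure D1:**
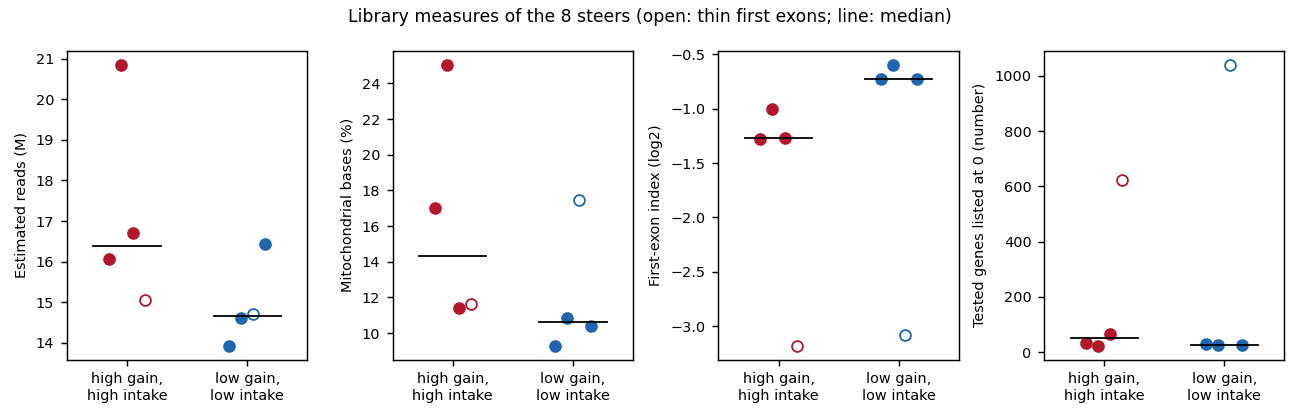
Estimated reads (M), mitochondrial bases (%), first-exon index (log2) and the number of tested genes listed at 0, 1 point per steer, in HGHI (left) and LGLI steers (right); lines are medians and open points the 2 libraries with thin first exons. HGHI replicate 4 and LGLI replicate 3 lie apart at indices of -3.18 and -3.08.

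HGHI papillae had lower estimates for genes of the connective tissue core, muscle contraction and vessels, and higher estimates for genes of the cornified surface and, to a smaller extent, of protein folding in the endoplasmic reticulum. All 23 measured matrix genes had estimates below 0, with a median log2 difference of -1.19, and all 20 measured cornified-layer genes had estimates above 0, with a median of 1.03. None of these differences was past the threshold after adjustment. In limma on log2(value + 0.1), 0 genes were higher and 0 lower at an adjusted p of 0.05 (0.0% of 8984 genes in each direction), and the smallest adjusted p was 1.00. At an unadjusted p under 0.05 there were 37 higher genes (0.412%) and 108 lower genes (1.2%). These 145 genes are fewer than the 449 due by chance at that threshold. Over all tested genes 42.4% of estimates were above 0 and 57.6% below, the median log2 difference was -0.06, and the median SE of a difference was 0.54. The split of the unadjusted calls depended on the scaling: it was 49 higher and 50 lower with library medians centred, and 80 higher and 70 lower after quantile normalization. Log2 differences are on the log2(value + 0.1) scale, which understates the change of low genes.

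The 2 libraries with thin first exons weighed on these counts. Without them, 104 genes (1.16%) were higher and 974 (10.8%) lower at an unadjusted p under 0.05 in limma, and 0 passed the adjusted threshold in either direction (smallest adjusted p 0.116). The median log2 difference of all genes was then -0.18, with 30.3% of estimates above 0 and 69.7% below. Median centring and quantile normalization were not run on these 6 libraries. The part of their exon and mitochondrial shares in this shift was not tested. Leaving out LGLI replicate 3 alone gave 54 higher and 330 lower genes at that unadjusted p, and leaving out HGHI replicate 4 alone gave 28 and 211. With the first-exon index as a covariate, 1 gene passed in limma, the pericyte gene RGS5 (adjusted p 0.0419). A fit of all 16 libraries with that covariate, chosen after seeing the data, called 295 higher genes (3.28%) and 175 lower genes (1.95%) at an adjusted p of 0.05. It is called the covariate fit below. The index did not overlap between the groups among the 6 libraries that are not thin. Over all 8 libraries its difference was -0.40 (two-sided exact permutation p 0.457, adjusted p 0.571) and changed sign without HGHI replicate 4. The part of first-exon coverage in these calls was not tested.

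**Figure D2:**
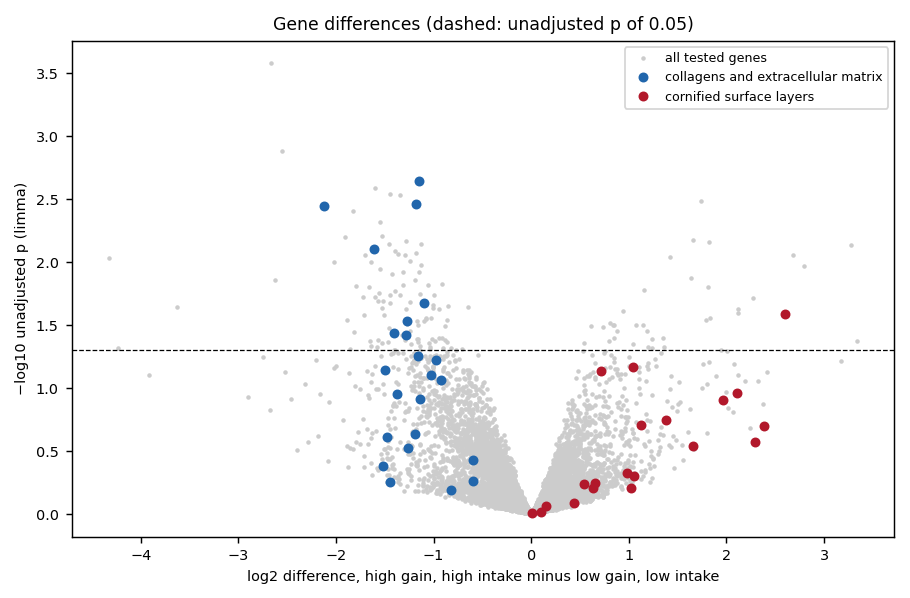
Log2 difference of HGHI minus LGLI steers (x axis) against -log10 of the unadjusted limma p (y axis) for 8984 genes, with 23 matrix genes in blue and 20 cornified-layer genes in red. The blue points lie left of 0 and the red points right of it, and only 8 blue points and 1 red point are above the dashed line at an unadjusted p of 0.05.

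The 12 genes with the smallest unadjusted p among those with lower estimates had no overlap between the groups, which held for 1.38% of all tested genes in that direction. A gene with a small p tends to have groups that do not overlap, so this count describes the choice. Several act in the matrix. FBLN1, which encodes fibulin 1 of basement membranes and elastic fibres, had 13.5, 14.8, 10.5 and 11.9 in HGHI steers, against 23.5, 29, 38.6 and 23.9 in LGLI steers. Every HGHI steer lay below every LGLI steer, at means of 12.7 ± 1.85 in HGHI steers and 28.7 ± 7.01 in LGLI steers (SD, n = 4 each), and the log2 difference was -1.15 ± 0.26 (SE). SPARC, a secreted glycoprotein that binds collagen, had 60.4, 55.7, 41.7 and 67.5 in HGHI steers, against 115, 109, 185 and 108 in LGLI steers. Its log2 difference was -1.18 ± 0.29 (SE), and the highest value was that of LGLI replicate 3, a library with thin first exons. TNC encodes tenascin C, a matrix glycoprotein of remodelling tissue. It had 5.9, 3.05, 0.96 and 2.9 in HGHI steers, against 8.59, 12, 16.1 and 12.7 in LGLI steers, and HGHI replicate 3 was lowest. The TNC difference of -2.13 ± 0.53 (SE) was the largest of the 4 matrix genes with the smallest p, ahead of -1.61 ± 0.46 for COL4A1, a basement membrane collagen. In the files, on the UMD3.1 build, these regions were exon 17 of FBLN1 (chromosome 5, 116695333 to 116696152), exon 10 of SPARC (chromosome 7, 64877768 to 64879526) and exon 23 of TNC (chromosome 8, 105965490 to 105966316). None of the 24 genes named for the smallest p had a first exon in its region.

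Proteases and inhibitors of the matrix were among the 12 lower genes too. PLAT, the tissue plasminogen activator that starts fibrin breakdown, had 1.82, 1.52, 1.64 and 0.91 in HGHI steers, against 3.74, 5.69, 3.47 and 5.77 in LGLI steers. The groups did not overlap and the log2 difference was -1.60 ± 0.37 (SE, unadjusted limma p 0.00258). TIMP3, an inhibitor of metalloproteinases that is held in the matrix, had 0.78, 1.78, 1.3 and 0.98 in HGHI steers, against 7.34, 5.75, 3.2 and 2.69 in LGLI steers. Its region of 118 bases held 2 to 7 estimated reads per HGHI library and 9 to 20 per LGLI library, so its values carry more counting error than those of FBLN1 or SPARC. MYOC, the secreted glycoprotein myocilin, had 1.51, 1.71, 1.03 and 0.97 in HGHI steers, against 4.27, 3.41, 3.3 and 3.69 in LGLI steers, and the LGLI steers lay within a narrow range. The log2 differences were -1.83 ± 0.46 for TIMP3 and -1.45 ± 0.35 for MYOC (SE).

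Others are known from contractile or adherent cells. MYLK encodes myosin light chain kinase, which starts smooth muscle contraction, and had 5.5, 3.35, 1.88 and 6.07 in HGHI steers, against 9.05, 12.7, 32.8 and 12 in LGLI steers. LGLI replicate 3 was highest, and without the 2 thin libraries the MYLK log2 difference was -1.73, against -1.90 ± 0.52 (SE) with all 8. PGM5, a protein of muscle adhesion sites, had 1.74, 1.66, 1.08 and 1.51 in HGHI steers, against 3.65, 4.03, 3.67 and 4.25 in LGLI steers. Its spread within each group was small beside the log2 difference of -1.34 ± 0.32 (SE). GEM, a small GTPase that restrains calcium channels, had 0.5, 0.31, 0.47 and 0.43 in HGHI steers, against 0.92, 1.57, 2.3 and 1.16 in LGLI steers, with a log2 difference of -1.53 ± 0.42 (SE). ANXA6, a calcium-dependent membrane-binding annexin, had 2.75, 1.34, 1.91 and 2.34 in HGHI steers, against 7.7, 9.06, 3.58 and 5.58 in LGLI steers, and its log2 difference was -1.55 ± 0.40 (SE). The ANXA6 region of 98 bases held 5 to 7 estimated reads per HGHI library and 9 to 22 per LGLI library. Over all exon regions of ANXA6 the log2 difference was -1.09 (unadjusted limma p 0.184), and 21 of 21 other regions had the same sign. RBPMS, an RNA-binding protein known as a splicing regulator of smooth muscle, had the smallest p of all tested genes. It had 0.24, 0.18, 0.45 and 0.24 in HGHI steers, against 1.5, 2.54, 3.46 and 1.81 in LGLI steers, a log2 difference of -2.66 ± 0.43 (SE) and an unadjusted limma p of 0.000264. SMARCA1, the ATPase of a chromatin remodelling complex, had 0, 0.12, 0.16 and 0.18 in HGHI steers, against 0.93, 1.14, 1.84 and 0.67 in LGLI steers, with a log2 difference of -2.55 ± 0.53 (SE).

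RBPMS and SMARCA1 rest on few reads. Their regions held 1 to 2 estimated reads per HGHI library and 6 to 13 per LGLI library for RBPMS, and 0 to 1 estimated reads per HGHI library and 4 to 10 per LGLI library for SMARCA1. Both passed the filter through LGLI libraries only, as the higher gene FKBP1B did through HGHI libraries, so these 3 had to differ in order to be tested at all. For the 12 lower genes, 91 of 91 other exon-bearing regions had an estimate of the same sign as the region used. RBPMS gave 2 of these regions and SMARCA1 gave 1. The regions were measured in the same 8 libraries that the genes were chosen from, so they are no independent check.

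Of the 12 genes with the smallest unadjusted p among those with higher estimates, 9 had no overlap between the groups, against 0.59% of all tested genes in that direction. Some act on lipids. ALOX12 is a lipoxygenase that acts on arachidonic acid. It had 9.54, 4.83, 13.9 and 7.47 in HGHI steers, against 3.1, 2.55, 1.35 and 4.07 in LGLI steers. HGHI replicate 3 was highest and LGLI replicate 3 lowest, and the log2 difference was 1.66 ± 0.46 (SE, unadjusted limma p 0.00669). PLA2G4D, a cytosolic phospholipase A2 of stratified epithelium, had 6.8, 2.1, 2.75 and 4.96 in HGHI steers, against 1.02, 1.39, 0.52 and 1.25 in LGLI steers. The log2 difference was 1.82 ± 0.51 (SE), and HGHI replicates 1 and 4 were highest. AGPAT9, an acyltransferase of glycerolipid synthesis, had 6.94, 3.69, 6.2 and 4.73 in HGHI steers, against 3.19, 2.38, 1.34 and 2.71 in LGLI steers, with a log2 difference of 1.16 ± 0.38 (SE). The region was exon 14 for ALOX12 (chromosome 19, 27434136 to 27434785) and exons 17 to 20 for PLA2G4D (chromosome 10, 37599756 to 37606615).

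TRIM40, a ubiquitin ligase of the gut epithelium, had the smallest p among the higher genes, with 2.28, 3.37, 2.27 and 2.62 in HGHI steers, against 1.12, 0.62, 0.38 and 0.93 in LGLI steers. All HGHI steers were at least at 2.27 and no LGLI steer was above 1.12, and the log2 difference was 1.73 ± 0.42 (SE, unadjusted limma p 0.00327). GALNT6, which adds the first sugar of mucin-type chains to proteins, had 8.63, 5.88, 7.64 and 4.28 in HGHI steers, against 1.9, 2.78, 0.75 and 3.8 in LGLI steers. Its log2 difference was 1.63 ± 0.52 (SE). ELMOD1, which acts on small GTPases of the Arf family, had 14.7, 4.79, 9.46 and 14.2 in HGHI steers, against 3.99, 4.81, 2.96 and 3.03 in LGLI steers, and HGHI replicate 2 lay within the LGLI range. AP3B2, a subunit of a vesicle adaptor complex known from neurons, had 3.95, 1.66, 6.78 and 1.53 in HGHI steers, against 0.39, 1.38, 0.09 and 0.98 in LGLI steers. C15H11orf34 had 4.23, 0.49, 6.05 and 1.64 in HGHI steers, against 0.08, 0.5, 0.08 and 0.51 in LGLI steers, and its groups overlapped at HGHI replicate 2. The log2 differences were 1.42 ± 0.42 for ELMOD1, 2.27 ± 0.78 for AP3B2 and 2.79 ± 0.85 for C15H11orf34 (SE).

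The other 4 higher genes are weakly founded. RGS2, a regulator of G protein signalling, had 5.04, 4.22, 1.07 and 12.4 in HGHI steers, against 0.76, 0, 0.48 and 0.64 in LGLI steers over a region of 166 bases, with 5 to 52 estimated reads per HGHI library and 0 to 3 per LGLI library. Over all its exon regions the log2 difference was 0.61, against 3.27 ± 0.92 (SE) in the region used, and 2 of its 4 other regions had the same sign. NT5M, a mitochondrial nucleotidase, had 1.58, 0.4, 1.04 and 1.13 in HGHI steers, against 0.59, 0, 0 and 0 in LGLI steers over 63 bases. Over all exon regions its difference was 0.48, against 2.68 ± 0.78 (SE), and 1 of 2 other regions had the same sign. FKBP1B, which binds the ryanodine receptor, had 1.16, 1.15, 0.58 and 0.83 in HGHI steers, against 0, 0.28, 0.33 and 0.3 in LGLI steers, and ACCS had 0.72, 0.72, 1.31 and 1.13 in HGHI steers, against 0.31, 0, 0 and 0.69 in LGLI steers. These 2 regions held at most 5 estimated reads in any of the 8 libraries. For the 12 higher genes together, 57 of 65 other exon-bearing regions had the sign of the region used, again in the libraries that the genes were chosen from.

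**Figure D3:**
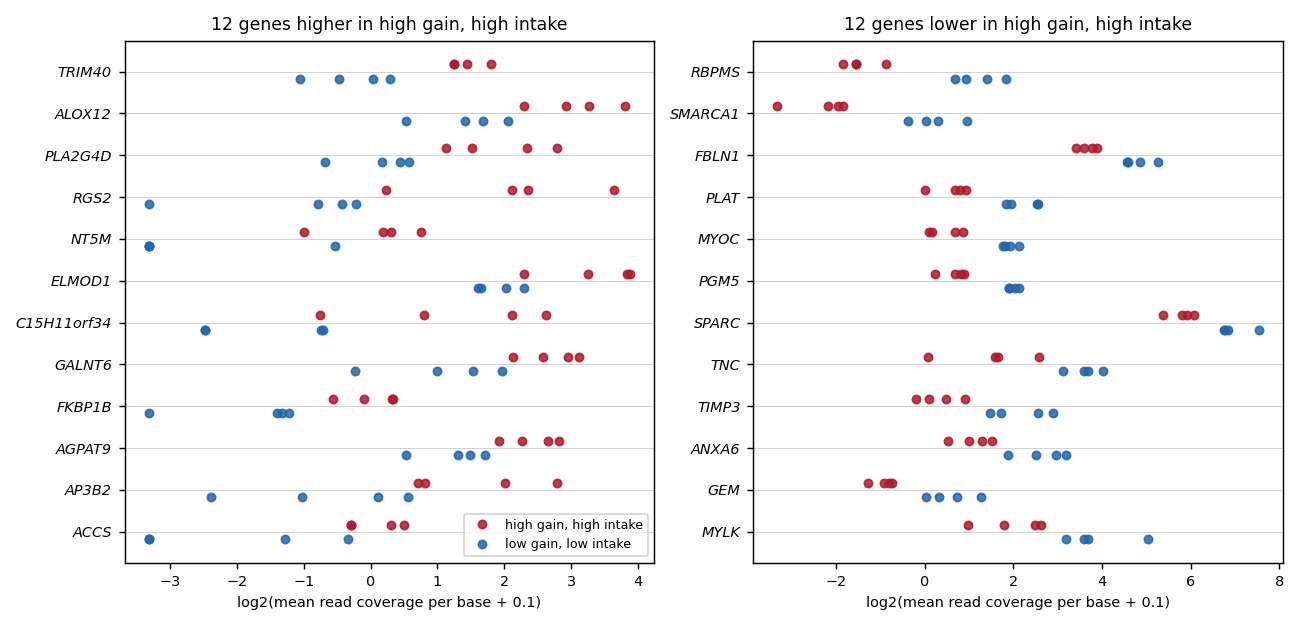
Level as log2(mean read coverage per base + 0.1) of the 12 genes with the smallest unadjusted p in each direction, 1 point per steer, HGHI steers (red) above LGLI steers (blue) in each row. The groups do not overlap for the 12 lower genes on the right and overlap for ELMOD1, C15H11orf34 and NT5M on the left.

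Steers with only 1 of the traits lay between for most of these genes. Both of their group means on the log2 scale were between the HGHI and LGLI means for 12 of the 12 lower and 10 of the 12 higher genes, against 9.85% of all tested genes. Since the named genes are the most separated ones, other groups fall between easily, and no test was made. Replicates 2, 3 and 4 of the high gain, low intake group were thin in first exons, with indices of -3.15, -2.51 and -2.315. The indices of the low gain, high intake libraries were -0.98 to -0.72, and the part of this in the levels below was not tested. SPARC averaged 56.3 ± 10.9 in HGHI steers and 129 ± 37.3 in LGLI steers, with 90.6 ± 19.3 in steers of high gain, low intake and 76.2 ± 20.9 in those of low gain, high intake (SD, n = 4 each). FBLN1 was at 17.2 ± 3.46 in steers of high gain, low intake and 21.3 ± 1.39 in those of low gain, high intake (SD, n = 4 each). RBPMS stood at 0.762 ± 0.206 in steers of high gain, low intake and 0.492 ± 0.302 in those of low gain, high intake (SD, n = 4 each), nearer to the HGHI mean of 0.278 than to the LGLI mean of 2.33. The higher genes split: TRIM40 was at 2.15 ± 0.775 in steers of high gain, low intake and 1.28 ± 1.1 in those of low gain, high intake (SD, n = 4 each), so the group with high gain was nearer to HGHI. ALOX12 was at 4.09 ± 0.976 in steers of high gain, low intake and 6.96 ± 2.72 in those of low gain, high intake (SD, n = 4 each), so here the group with high intake was nearer to HGHI. In AP3B2 the means were 0.743 ± 0.603 in steers of high gain, low intake and 3.83 ± 3.04 in those of low gain, high intake (SD, n = 4 each), again with the high intake group near the HGHI mean of 3.48 and the high gain group near the LGLI mean of 0.71. RGS5 lay between as well, at 9.47 ± 2.94 in steers of high gain, low intake and 5.78 ± 0.46 in those of low gain, high intake (SD, n = 4 each).

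Collagens and other matrix genes had lower estimates throughout. Of 29 listed genes 23 were in the table, and all 23 were tested. All 23 had estimates below 0, against 57.6% of all tested genes, and their median log2 difference was -1.19 against -0.06. In 9 of the 23 the groups did not overlap (1.38% of all genes), and 8 had an unadjusted limma p under 0.05 (1.2% of all genes). COL4A1 had 9.23, 7.68, 2.26 and 3.73 in HGHI steers, against 14.9, 12.4, 17 and 17.8 in LGLI steers, without overlap. COL3A1, a fibrillar collagen of soft tissue, had 55.9, 41.9, 52.3 and 78.5 in HGHI steers, against 109, 98.7, 392 and 79.6 in LGLI steers, and LGLI replicate 4 lay just above HGHI replicate 4. The summed level of the 23 genes was 271 to 371 in HGHI steers and 538 to 1375 in LGLI steers. Without the 2 thin libraries 22 of 23 estimates were below 0, against 69.7% of all genes, with a median of -1.06. In the covariate fit 13 of 23 fell at an adjusted limma p of 0.05 (1.95% of all genes) and 0 rose. COL1A1 entered the list because it is a gene the study discussed, and a lower level of matrix genes in these libraries was known when the list was drawn up.

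Fibroblast markers lay the same way, in part through shared genes: DCN, LUM, COL1A2 and COL3A1 are in both lists. All 12 were tested and all 12 had estimates below 0, against 57.6% of all genes, with a median of -0.99. LUM, a collagen-binding proteoglycan, had 22.8, 14.2, 17.7 and 36.6 in HGHI steers, against 35.9, 39.5, 175 and 42.7 in LGLI steers, with a log2 difference of -1.41 ± 0.57 (SE). COL1A2, a chain of type I collagen, had 45.9, 34.7, 46.9 and 56.2 in HGHI steers, against 63.8, 74, 271 and 56.7 in LGLI steers, and DCN, the proteoglycan decorin, had 9.81, 8.31, 16.2 and 20.5 in HGHI steers, against 15.8, 22.4, 53.8 and 18.7 in LGLI steers. LGLI replicate 3 was highest in all 3 genes. Without that library the list median was -0.68. The summed level was 123 to 226 in HGHI steers and 239.6 to 967 in LGLI steers, and 6 of the 12 fell in the covariate fit (1.95% of all genes). In bulk tissue fewer cells of a type and less RNA per cell cannot be told apart.

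Smooth muscle markers had a median of -1.40, with 12 of 13 tested genes below 0, against 57.6% of all genes. This median depended on the thin libraries: it was -0.84 without HGHI replicate 4, -2.07 without LGLI replicate 3, and -0.87 with the first-exon index as a covariate, where 9 of 13 were below 0. CALD1, the actin-binding protein caldesmon, had 5.21, 3.05, 3.84 and 6.72 in HGHI steers, against 7.47, 9.94, 26.8 and 7.38 in LGLI steers. SYNPO2, an actin-bundling protein of muscle, had 0.34, 0.27, 0.18 and 0.31 in HGHI steers, against 0.53, 0.75, 1.66 and 0.84 in LGLI steers, at a level under 1 in most libraries. It passed the filter through LGLI libraries only, so it had to differ in order to be tested. CALD1 did not overlap between the groups, and the log2 differences were -1.27 ± 0.48 for CALD1 and -1.39 ± 0.46 for SYNPO2 (SE). CNN1, the contractile regulator calponin, had 1.74, 0.37, 0 and 0 in HGHI steers, against 1.78, 7.74, 0.27 and 3.17 in LGLI steers and overlapped. The summed level of the list was 17.5 to 86.2 in HGHI steers and 65.7 to 177 in LGLI steers, which overlapped. The 2 libraries with thin first exons were the lowest of their groups, at 17.5 and 65.7. Without them all 13 estimates were below 0, with a median of -1.73, and in the covariate fit 3 of 13 fell (1.95% of all genes).

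Pericyte markers, of the cells that wrap small vessels, did not overlap between the groups in their summed level. All 6 tested genes had estimates below 0, against 57.6% of all genes, with a median of -1.28, and 3 did not overlap (1.38% of all genes). With the first-exon index as a covariate 5 of 6 were below 0, and in the covariate fit 2 of 6 fell (1.95% of all genes). PDGFRB is in both this list and the fibroblast list. RGS5, a G protein regulator that marks pericytes, had 1.75, 2.3, 2.03 and 4.56 in HGHI steers, against 6.5, 7.44, 34.6 and 6.88 in LGLI steers. Its log2 difference was -2.02 ± 0.61 (SE, unadjusted limma p 0.00996), and in the covariate fit it had an adjusted limma p of 0.000119. MCAM, an adhesion molecule of vessel walls, had 1.46, 1.07, 0.5 and 0.72 in HGHI steers, against 2.11, 2.92, 1.77 and 2.66 in LGLI steers, and KCNJ8, a subunit of a potassium channel, had 0.52, 0.32, 0.37 and 0.21 in HGHI steers, against 0.63, 1.39, 1.06 and 0.85 in LGLI steers. The log2 differences were -1.32 ± 0.43 for MCAM and -1.25 ± 0.44 for KCNJ8 (SE). The summed level was 6.05 to 10.1 in HGHI steers and 19.1 to 38.3 in LGLI steers, and 13 to 17 in steers of high gain, low intake and 12.9 to 16.6 in those of low gain, high intake. All 4 HGHI libraries lay below each of the other 12 libraries in this sum.

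Endothelial markers had 12 of 14 estimates below 0, against 57.6% of all genes, and a median of -0.85, and 5 of 14 did not overlap (1.38% of all genes). CDH5, the cadherin of endothelial junctions, had 0.81, 0.76, 0.59 and 0.57 in HGHI steers, against 1.46, 1.79, 1.71 and 1.44 in LGLI steers. PECAM1, an adhesion molecule of the same junctions, had 4.39, 3.52, 2.41 and 3.89 in HGHI steers, against 5.97, 6.27, 6.51 and 7.83 in LGLI steers. Both were lower in every HGHI steer than in any LGLI steer, with log2 differences of -1.13 ± 0.34 for CDH5 and -0.91 ± 0.30 for PECAM1 (SE). TEK, the angiopoietin receptor, had 1.37, 1.23, 1.09 and 2.01 in HGHI steers, against 2.13, 2.64, 6.1 and 2.22 in LGLI steers, and KDR, a receptor of vascular growth factor, had 2.5, 0.87, 0.57 and 2.68 in HGHI steers, against 2.71, 2.78, 6.29 and 3.42 in LGLI steers. Their log2 differences were -1.04 ± 0.45 and -1.32 ± 0.58 (SE). The summed level was 15.9 to 31.1 in HGHI steers and 34.4 to 52 in LGLI steers, and without the thin libraries 13 of 14 estimates were below 0, against 69.7% of all genes. With the index as a covariate 9 of 14 were below 0. LYVE1, a receptor of lymphatic vessels, had 0.34, 0.08, 0.4 and 0.16 in HGHI steers, against 0.66, 0.69, 1.93 and 0.76 in LGLI steers, and it too passed the filter through LGLI libraries only. The lymphatic list had 2 tested genes.

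**Figure D4:**
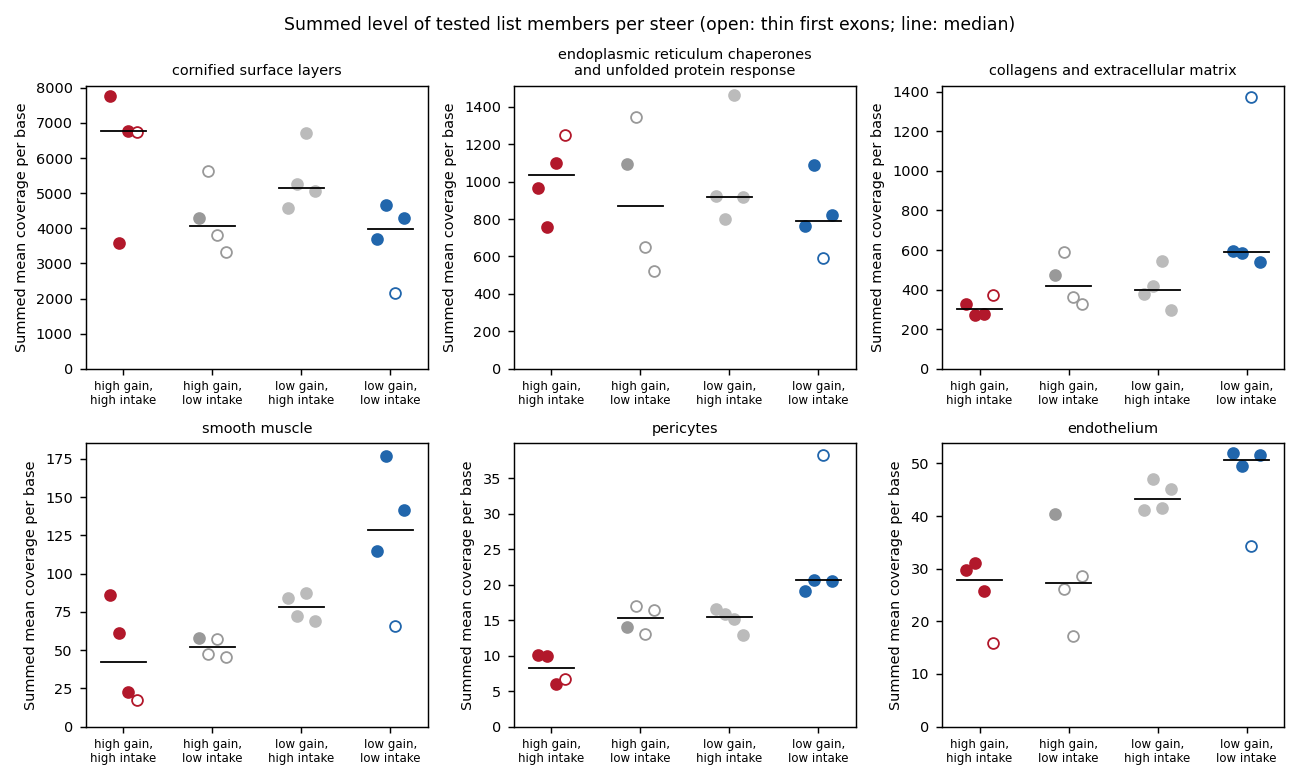
Summed mean coverage per base of the tested members of 6 gene lists, 1 point per steer, in HGHI steers, those with only high gain, those with only high intake and LGLI steers, from left to right; lines are medians and open points libraries with thin first exons. The pericyte sum is 6.05 to 10.1 in HGHI steers and 19.1 to 38.3 in LGLI steers, while the cornified sum overlaps.

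Cornified-layer genes pointed the other way but were far less even between animals. Of 41 listed genes 27 were in the table and 20 were tested. All 20 had estimates above 0, against 42.4% of all genes, with a median of 1.03. The groups overlapped in all 20, and only 0.59% of all genes were higher without overlap. KLK9, a kallikrein, one of the serine proteases that act in shedding skin, had 3.17, 0.94, 6.3 and 0.26 in HGHI steers, against 0.08, 0.5, 0.04 and 0.28 in LGLI steers. It was the only gene of the list with an unadjusted limma p under 0.05 (0.0258), with a log2 difference of 2.60 ± 0.96 (SE). S100A8 and S100A12, calcium-binding proteins of stressed keratinocytes and granulocytes, had first exons in their regions. S100A8 had 734, 247, 816 and 766 in HGHI steers, against 196, 511, 199 and 313 in LGLI steers, and S100A12 had 5685, 2484, 4455 and 5479 in HGHI steers, against 2627, 3125, 1898 and 3068 in LGLI steers. HGHI replicate 2 was low in both. DSG1, a cadherin of the upper epidermis, had 8.49, 2.65, 124 and 3.66 in HGHI steers, against 1.52, 2.25, 1.45 and 5.3 in LGLI steers, with HGHI replicate 3 far above the rest. The summed level was 3585 to 7780.0 in HGHI steers and 2159.9 to 4664 in LGLI steers. Without the thin libraries 15 of 20 estimates were above 0, against 30.3% of all genes, with a median of 0.86. The median was 0.27 without LGLI replicate 3 alone, 0.64 without HGHI replicate 1 alone and 1.76 without HGHI replicate 4 alone. In the covariate fit 3 of 20 rose (3.28% of all genes). Kallikreins, keratins and S100 genes have close paralogs, and how shared reads were assigned is not given in the sources used here.

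Keratins of the layers above the basal one had 6 of 8 estimates above 0 and a median of 0.62, which was 0.17 without the thin libraries and -0.22 without LGLI replicate 3 alone. KRT6A, a keratin of fast-renewing epithelium and among the most covered genes, had 3380.4, 1960.2, 2809 and 2422 in HGHI steers, against 2266, 2356, 851 and 2103 in LGLI steers, and LGLI replicate 3 was far below the rest. KRT10, a keratin of epidermal differentiation, went against the list, with 0.92, 0.85, 0.82 and 0.91 in HGHI steers, against 1.31, 1.35, 1.24 and 0.99 in LGLI steers and no overlap. Basal layer markers had 6 of 9 estimates below 0, against 57.6% of all genes, and their median of -0.33 became 0.08 without HGHI replicate 4. Without the 2 thin libraries 7 of 9 were below 0, against 69.7% of all genes, with a median of -0.64. In that fit 5 of 9 were lower at an unadjusted limma p under 0.05, against 10.8% of all genes. KRT14, a keratin of basal cells, had 841, 664, 436 and 80.2 in HGHI steers, against 319, 686, 9.83 and 467 in LGLI steers, with the 2 thin libraries lowest in their groups. ITGA6, an integrin that anchors basal cells, had 8.08, 6.51, 7.43 and 14.5 in HGHI steers, against 11, 11.5, 27 and 12 in LGLI steers. These keratins, which mark stratified epithelium in general, were detected in all 8 libraries.

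Protease inhibitors and barrier lipids were mixed. In the list of serine protease inhibitors and cystatins 10 of 15 estimates were above 0, with a median of 0.24. PI3, the elastase inhibitor elafin, varied widely within both groups, with 1819, 77.4, 132 and 313 in HGHI steers, against 8.82, 324, 5.82 and 51.2 in LGLI steers. SERPINB8, an intracellular protease inhibitor, had 14.7, 11.4, 7.55 and 7.95 in HGHI steers, against 7.02, 4.16, 2.39 and 8.45 in LGLI steers. The barrier lipid list, which includes ALOX12, held 11 of 20 estimates above 0 and had a median of 0.06. ELOVL4, which lengthens very long fatty acids, had 1.16, 1.09, 3.4 and 1.55 in HGHI steers, against 0.87, 1.02, 0.68 and 0.7 in LGLI steers, without overlap, and a log2 difference of 0.92 ± 0.46 (SE). Cell junction genes had 17 of 26 above 0, and CGN, the tight junction protein cingulin, had 35.1, 28.5, 26.3 and 27.6 in HGHI steers, against 25.5, 18.4, 11.6 and 21.8 in LGLI steers, again without overlap.

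Genes of protein folding in the endoplasmic reticulum had small differences in 1 direction. Of 27 tested, 25 had estimates above 0, against 42.4% of all genes, with a median of 0.28. None had an unadjusted limma p under 0.05 (0.412% of all genes were higher at that p). None had groups without overlap (0.59% of all genes in that direction). XBP1, a transcription factor of the unfolded protein response, had 163, 88.9, 103 and 239 in HGHI steers, against 66, 114, 105 and 81 in LGLI steers. MANF, a factor secreted under folding stress, had 29.3, 20.8, 28.5 and 38.3 in HGHI steers, against 19.4, 33.2, 10 and 20.7 in LGLI steers. Their log2 differences were 0.62 ± 0.38 for XBP1 and 0.58 ± 0.40 for MANF (SE), and both genes overlapped between the groups. Without the thin libraries 18 of 27 were above 0, against 30.3% of all genes, and the median was 0.09. CRELD2 entered this list because it is a gene the study discussed. Cytosolic heat shock genes lay on the other side, with 10 of 14 below 0. Vacuolar proton pump genes had 12 of 18 above 0, and ATP6V1C2, one of the pump's subunits, had 6.43, 8.81, 16 and 8.99 in HGHI steers, against 6.5, 4.01, 1.6 and 6.52 in LGLI steers.

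Genes of innate sensing had 17 of 19 estimates above 0, against 42.4% of all genes, with a median of 0.23. Without the thin libraries 13 of 19 were above 0, against 30.3% of all genes. Only 1 of 19 was higher at an unadjusted limma p under 0.05 (0.412% of all genes). In 0 of 19 were the groups without overlap (0.59% of all genes were higher without overlap). TLR2, a receptor for bacterial lipoproteins, had 1.61, 3.14, 2.02 and 2.44 in HGHI steers, against 0.92, 0.88, 1.76 and 0.57 in LGLI steers. HGHI replicate 1 lay below LGLI replicate 3, and the log2 difference was 1.15 ± 0.44 (SE, unadjusted limma p 0.0318). LBP, which binds bacterial lipopolysaccharide, had 11.9, 3.55, 11.3 and 18.1 in HGHI steers, against 1.32, 7.73, 0.86 and 6.36 in LGLI steers, and CD14, its partner receptor, had 23.3, 10.4, 32 and 21.7 in HGHI steers, against 6.26, 9.7, 11.3 and 19.6 in LGLI steers. IRAK2, a kinase of the same pathway, had 3.31, 1.74, 2.02 and 5.22 in HGHI steers, against 1.43, 1.79, 1.37 and 1.37 in LGLI steers. All 3 overlapped between the groups. Interferon-induced genes had 11 of 20 above 0 and a median of 0.04. MX2, an antiviral GTPase, had 1.63, 0.94, 1.23 and 2.49 in HGHI steers, against 0.57, 0.59, 0.81 and 0.66 in LGLI steers, without overlap, and IFI30, a thiol reductase of antigen processing, had 20.2, 17.2, 27.4 and 31.7 in HGHI steers, against 12.9, 13.8, 8.02 and 19.6 in LGLI steers. The log2 differences were 1.07 ± 0.41 for MX2 and 0.85 ± 0.35 for IFI30 (SE).

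Immune cell markers gave no even direction. T and NK cell markers had 5 of 8 estimates above 0, and CD3G, a chain of the T cell receptor complex, had 6.96, 24.7, 5.13 and 12.7 in HGHI steers, against 20.1, 23.4, 15.8 and 25.3 in LGLI steers. Macrophage and dendritic cell markers had 3 of 8 above 0. AIF1, a marker of macrophages, had 16.1, 4.98, 3.41 and 17.2 in HGHI steers, against 6.89, 4.94, 8.95 and 4.58 in LGLI steers. Of the neutrophil and erythrocyte lists 0 genes were tested, and 2 of the 3 erythrocyte genes in the table, HBM and ALAS2, were listed at 0 in all 8 libraries. B and plasma cells had 2 tested genes, mast cells and melanocytes 1 each and nerve and glia 3, which is too few to describe.

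Genes for using the products of fermentation had more estimates below 0 than above, as did all tested genes (57.6% below 0). None of ketone body synthesis or acid activation had an unadjusted limma p under 0.05. Of all genes 1.2% were lower and 0.412% higher at that p. In ketone body synthesis 11 of 15 estimates were below 0, with a median of -0.37, and in acid activation 5 of 8. Without the thin libraries 14 of 15 were below 0, against 69.7% of all genes, and the median was -0.64 against -0.18. In that fit 9 of 15 ketone genes and 4 of 8 acid activation genes were lower at an unadjusted limma p under 0.05, against 10.8% of all genes. With the first-exon index as a covariate 7 ketone genes were above 0 and 8 below. ACAT1, which joins acetyl units at the entry to the pathway, had 39.5, 70, 62 and 99.1 in HGHI steers, against 114, 92.9, 163 and 87 in LGLI steers. HADH, a dehydrogenase of short fatty acid oxidation, had 183, 244, 222 and 514 in HGHI steers, against 382, 313, 571 and 406 in LGLI steers. In both genes HGHI replicate 4 was the highest of its group and lay within the LGLI range, and the log2 differences were -0.78 ± 0.36 for ACAT1 and -0.61 ± 0.38 for HADH (SE). PCCB, a subunit of propionyl-CoA carboxylase, had 19.1, 19.9, 41.8 and 53.3 in HGHI steers, against 50.2, 40.7, 51.2 and 48.5 in LGLI steers. Tricarboxylic acid cycle genes had 15 of 21 below 0 and a median of -0.23, and nuclear genes of oxidative phosphorylation 33 of 47 and -0.13, which turned to 0.13 with the index. Without the thin libraries 20 of 21 and 44 of 47 were below 0, against 69.7% of all genes, with medians of -0.42 and -0.31. In that fit 6 of 21 and 10 of 47 were lower at an unadjusted limma p under 0.05, against 10.8% of all genes.

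Transporters split by gene. SLC5A8, a sodium-coupled carrier of short-chain acids, had 1.47, 0.55, 0.61 and 1.77 in HGHI steers, against 0.41, 0.22, 0.14 and 0.69 in LGLI steers, with a log2 difference of 1.36 ± 0.58 (SE, unadjusted limma p 0.0473). SLC16A1, the proton-coupled carrier of lactate and short-chain acids, had 53.9, 54.8, 50.2 and 174 in HGHI steers, against 96.4, 99.5, 286 and 106 in LGLI steers. It was highest in the 2 thin libraries, and without them its log2 difference was -0.93, against -0.87 ± 0.53 (SE) with them. SLC26A3, a chloride and bicarbonate exchanger, had 6.15, 14.1, 9.66 and 16.2 in HGHI steers, against 23, 16.3, 9.15 and 23 in LGLI steers. SLC5A1, the sodium-glucose carrier, had 16.4, 8.25, 15.6 and 17.4 in HGHI steers, against 7.41, 11.3, 4.33 and 10.9 in LGLI steers, and AQP1, a water channel also found in vessels, had 4.45, 5.08, 5.2 and 1.88 in HGHI steers, against 11.4, 16.9, 3.38 and 8.38 in LGLI steers. The log2 differences were -0.63 ± 0.43 for SLC26A3, 0.79 ± 0.41 for SLC5A1 and -1.14 ± 0.56 for AQP1 (SE). The urea transporter gene SLC14A1 had 36.1, 55.8, 75 and 74 in HGHI steers, against 72.8, 63.2, 115 and 75.2 in LGLI steers. TRPV3, a cation channel that lets ammonium and calcium through, had 8.66, 6.56, 7.77 and 11.5 in HGHI steers, against 6.83, 5.87, 6.13 and 4.45 in LGLI steers.

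All 11 tested Wnt and Notch signalling genes had estimates below 0, against 57.6% of all genes, with a median of -0.50. This median was -0.27 with a minimum value of 2 and -0.32 after quantile normalization or with a pseudocount of 1. Leaving out 1 library gave -0.46 to -0.28. DKK3, a secreted protein related to Wnt antagonists, had 3.74, 2.41, 1.32 and 3.89 in HGHI steers, against 6.35, 9.16, 6.78 and 6.29 in LGLI steers, and FZD1, a Wnt receptor with a first exon in its region, had 0.68, 0.76, 0.69 and 0.68 in HGHI steers, against 1.03, 1.39, 2.05 and 1.22 in LGLI steers. Neither overlapped, with log2 differences of -1.40 ± 0.40 for DKK3 and -0.88 ± 0.37 for FZD1 (SE). TGF-beta and BMP genes had 12 of 15 below 0, with a median of -0.49. Without the thin libraries 11 of 15 were below 0, near the 69.7% of all genes. GREM1, a secreted BMP antagonist with a first exon in its region, had 0.33, 0.35, 1.25 and 0.06 in HGHI steers, against 0.97, 1.62, 1.27 and 1.2 in LGLI steers. TGFBR2, a TGF-beta receptor, had 5.15, 3.93, 3.84 and 7.84 in HGHI steers, against 7.12, 8.47, 15.6 and 7.27 in LGLI steers, and its log2 difference was -0.86 ± 0.38 (SE).

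Single genes stood out in lists of growth and stress responses, some of them with medians near that of all genes. IGFBP7, a secreted protein that binds insulin-like growth factors and lines vessels, had 16.9, 12, 10.9 and 20.4 in HGHI steers, against 27.5, 28.2, 63.9 and 29.1 in LGLI steers, without overlap. Its log2 difference was -1.24 ± 0.37 (SE, unadjusted limma p 0.00972), while the insulin and growth factor list had 8 of 17 estimates above 0 and a median of -0.05. CYR61, a matrix-bound early response protein, had 1.41, 1.57, 1.04 and 2.79 in HGHI steers, against 5.36, 3.04, 11.4 and 4.63 in LGLI steers, without overlap, and the related CTGF had 0.86, 0.41, 0.31 and 0.49 in HGHI steers, against 0.79, 1.53, 1.94 and 1.56 in LGLI steers, where HGHI replicate 1 lay above LGLI replicate 1. Their log2 differences were -1.70 ± 0.50 for CYR61 and -1.34 ± 0.46 for CTGF (SE), while the list of immediate early genes had a median of -0.05. NQO1, a quinone reductase, was the only gene without overlap among 37 redox genes, and 1.38% of all genes were lower without overlap. NQO1 had 6.35, 16.3, 10.5 and 9.82 in HGHI steers, against 45.9, 20, 19.2 and 35.8 in LGLI steers and a log2 difference of -1.46 ± 0.41 (SE). Homeobox genes had 8 of 10 below 0, against 57.6% of all genes, with a median of -0.57 against -0.06. IRX3, known from the study, had 6.89, 7.83, 7.24 and 8.29 in HGHI steers, against 10.3, 9.68, 7.77 and 15.4 in LGLI steers, and LGLI replicate 3 lay within the HGHI range. ERBB3, a receptor of neuregulins, had 11.9, 11.5, 14.7 and 12.1 in HGHI steers, against 9.85, 9.41, 7.7 and 8.99 in LGLI steers, without overlap, and a log2 difference of 0.47 ± 0.23 (SE). Its list, the EGF family and receptors, had 3 of 4 tested genes above 0 and a median of 0.35.

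Lists of general cell functions lay near the median of all genes. Cytosolic ribosomal proteins had 26 of 44 estimates above 0 and a median of 0.07, which was -0.30 without the thin libraries. Proteasome genes had 17 of 31 above 0 and a median of 0.02. Cell cycle and replication genes had 20 of 28 below 0 and a median of -0.13. Cholesterol synthesis had 15 of 23 above 0, and 4 of 23 without the thin libraries. PFKFB3, which drives glycolysis through a sugar phosphate signal, had 6.8, 3.49, 15.8 and 3.46 in HGHI steers, against 1.61, 2.82, 1.76 and 4.38 in LGLI steers and a log2 difference of 1.27 ± 0.58 (SE), in a glycolysis list with 12 of 20 above 0. PPARA, a fatty acid sensor that turns on fat oxidation, had 0.69, 1.58, 1.55 and 3.27 in HGHI steers, against 5.56, 3.47, 4.24 and 2.02 in LGLI steers and a log2 difference of -1.16 ± 0.54 (SE), and fatty acid genes had 14 of 23 below 0. Autophagy genes had 13 of 24 below 0 and apoptosis genes 9 of 16.

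**Figure D5:**
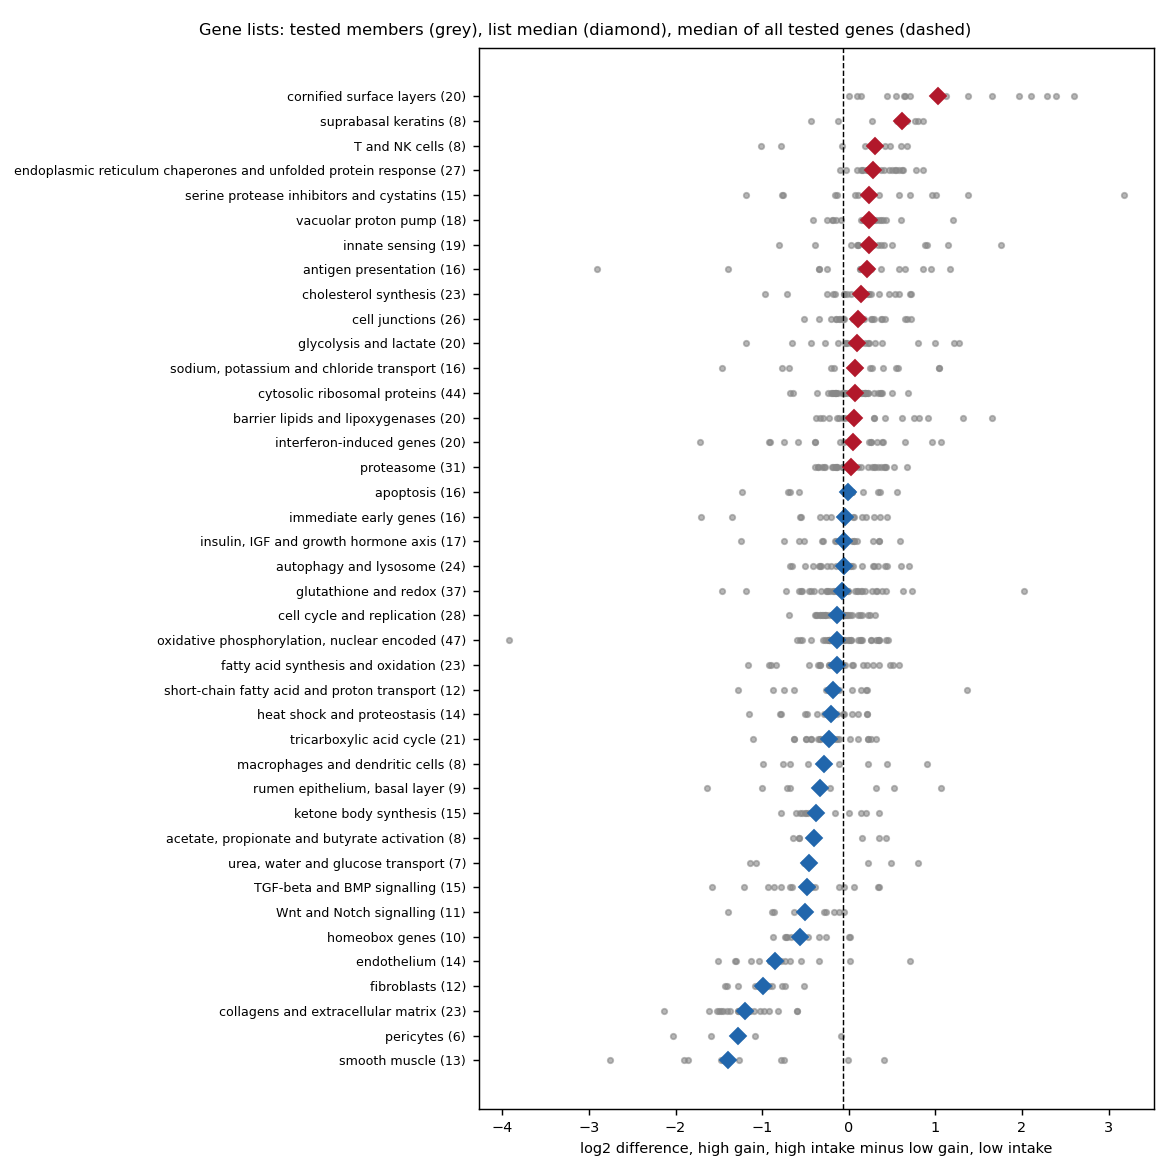
Log2 difference of HGHI minus LGLI steers for the tested members (grey points) and the median (diamond) of 40 gene lists with at least 5 tested genes; the number tested is in parentheses and the dashed line is the median of all tested genes, -0.06. Matrix, fibroblast, pericyte, smooth muscle and endothelial lists lie lowest and cornified-layer genes highest.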

How the data were processed

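Papillae of the rumen wall were frozen, RNA was extracted, polyadenylated RNA was selected on oligo-dT beads and single reads of 50 bases were made, per the labels' protocols. Per the submitters' processing notes, the authors used TopHat2 2.08b with build UMD3.1. Neither the annotation release nor the coverage tool is given in the sources used here. The signal values, as deposited by the authors, were taken as a region's mean read coverage per base, scaled by a factor for each library, which was read from the values and not from a header. Columns derived from them were not used.

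Of 2351373 regions, 113576 hold an exon, and 523 that join exons of different genes were not used. The exon region best covered on average in the 16 libraries stood for a gene (median length 964 bases). For 8.16% of tested genes that region held a first exon. The first-exon index was taken over 1898 genes with at least 6 exons numbered in the file, and a library under -2 was called thin in first exons. Reads per region were estimated from the value of 1 read and are no deposited counts.

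Groups were compared with limma 3.58.1 in R 4.3.3 (trended, robust empirical Bayes) on log2(value + 0.1) over 8 libraries, two-sided, with Benjamini-Hochberg adjustment over 8984 genes and a threshold of 0.05. ± is the SE of the model where it follows a log2 difference, and otherwise the SD between steers. The labels give 1 library per animal. On simulated data with this comparison's 8984 genes, 25% of 100 genes changed by 2 on the log2 scale and 72% of 100 changed by 4 were called, with 7 false calls. Noise was drawn for each gene on its own, so effects shared by the genes of a library were not simulated. These shares may therefore not hold for the real libraries. The groups, the 48 gene lists and the tests were chosen with earlier results of these data known. The text names the 12 genes per direction with the smallest unadjusted p, and up to 4 members per list by the same measure. A few further genes, called by an alternative, were named after their values were seen. Gene lists were described by counts and medians, without a test.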

Additional observations from a re-analysis of the deposited data

Results flagged for a closer look

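Among 58 groups of 4 values (the library measures and the 24 named genes in each group), 8 had 1 steer whose gap to the nearest other steer was too large a part of the range by Dixon's test at the 95% level. Chance flags about 5% of groups.

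Of the 8, 6 belong to the 2 libraries with thin first exons. HGHI replicate 4 had a first-exon index of -3.179 and 623 tested genes listed at 0. LGLI replicate 3 had an index of -3.085, 1040 tested genes listed at 0 and an exon share of 59.25% of bases. LGLI replicate 3 also stood apart for SPARC, at 185.2 against 108 to 115 in the other LGLI steers. SPARC had the same direction without that library.

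The remaining 2 are genes with few reads in LGLI steers. NT5M was at 0.59 in LGLI replicate 1 and listed at 0 in the other LGLI steers. FKBP1B was listed at 0 in LGLI replicate 1 and at 0.28 to 0.33 in the others.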

How the results depend on the processing

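No paired analysis was possible because animals carry no shared replicate number in the labels; the numbers used here follow accession order.

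Genes past an adjusted limma p of 0.05 numbered 0 in both directions under all but 3 of 22 alternatives. There was 1 lower gene with the first-exon index as a covariate, 5 lower genes with 4 groups over the 11 libraries that are not thin, and 295 higher and 175 lower genes in the covariate fit of all 16 libraries. The fits with 5 and with 470 calls were chosen after seeing the data.

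At an unadjusted p under 0.05, against 37 higher and 108 lower genes, there were 61 higher without a filter on low values, 22 and 53 with a minimum of 2, 91 and 238 with all 16 libraries, 23 higher over all exon regions, 50 lower with library medians centred, and 80 and 70 after quantile normalization. There were 104 and 974 without the thin libraries, 1436 and 1077 with the index, 128 and 1031 over the 11 libraries, and 1469 and 1018 in the covariate fit. Leaving out 1 library gave 17 to 61 higher and 65 to 330 lower. The lowest counts came without HGHI replicate 3 (17 and 65). The count was 21 higher without HGHI replicate 1, 61 and 71 without HGHI replicate 2, and 70 lower without LGLI replicate 2. The causes of these shifts were not tested.

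The 24 named genes kept their direction in all 514 alternative values. They were chosen for a small p in the same libraries, so a change of direction was unlikely from the start. Of these values 18 were past the threshold, all in fits chosen after seeing the data and 17 of them in the covariate fit. Fibroblast and pericyte medians were -0.69 and -0.68 with a pseudocount of 1, and leaving out 1 library gave fibroblast medians of -1.12 to -0.68. Of 40 lists, 8 changed the sign of their median without the thin libraries. The difference in genes listed at 0 was -92.8 and turned to 15.3 without the thin libraries and, leaving out 1 library, ran from -238 to 161 (without LGLI replicate 3). That in the first-exon index was -0.40 and ran from -0.998 to 0.10 (without HGHI replicate 4). Leaving out 1 library changed the sign of the median in 24 of 40 lists, and the smooth muscle median ran from -2.07 to -0.84. With 4 steers a group, 25% of simulated log2 differences of 2 were called, so most of that size went undetected in the simulation. Its noise was independent between genes, unlike that of libraries with thin first exons, and the share may not hold for the real libraries.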

Other observations

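With 4 groups over the 11 libraries that are not thin in first exons, a fit chosen after seeing the data, 5 genes fell at an adjusted limma p of 0.05. They were RGS5 (adjusted p 0.00931), HMOX2 (0.0149), and SPINT2, PLAT and BCHE (each 0.04998). HMOX2, a heme oxygenase, had 4.29, 4.44, 4.42 and 0 in HGHI steers, against 14.1, 20.9, 0 and 17.2 in LGLI steers. SPINT2, an inhibitor of epithelial serine proteases, had 30.7, 46.9, 28 and 1.82 in HGHI steers, against 95.4, 102, 0.52 and 105 in LGLI steers. Both regions hold a first exon, and HGHI replicate 4 and LGLI replicate 3 had the lowest values of their groups. First-exon coverage did not overlap between the groups in the other 6 libraries, and its part in these values was not tested. BCHE, butyrylcholinesterase, had 1.91, 2.28, 2.59 and 8.73 in HGHI steers, against 7.62, 7.77, 9.47 and 6.1 in LGLI steers, in a region without a first exon, and HGHI replicate 4 lay within the LGLI range.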
